A study of Mus musculus with 8 samples.

Results

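The mitochondrial ribosomal protein genes were examined in epididymal white adipose tissue of mice fed a high fat diet. They were taken as every row of the deposited table whose symbol is Mrpl or Mrps followed by a digit and whose mean level over the 8 samples was at least 0 log2 CPM (log2 of the reads of a gene relative to all reads of its library). The rule found 77 genes, 48 named Mrpl and 29 named Mrps, among 16505 genes listed and 13797 genes tested at the same level limit. All 77 genes with such a symbol met the limit, and the lowest of them, Mrpl47, had a mean of 3.20 log2 CPM. Messenger RNA was measured in C57BL/6 mice that had all been fed a high fat diet for 12 weeks. The 4 wild-type (WT) mice were compared with 4 mice labelled as miR-181 double-knockouts (the knockout, DKO in the plots), in a study of the microbiota, adipose inflammation and obesity. The labels do not name the deleted loci, and they give neither age nor sex. Since litters and cages are not stated, each p-value reflects only the spread among the 8 samples.

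Mitochondria keep a small genome of their own and translate it on their own ribosomes. The ribosomal RNAs of these mitoribosomes come from the mitochondrial genome, while all their proteins are encoded in the nucleus, made in the cytosol and imported. The proteins of the small subunit help to decode the messenger. Some of those of the large subunit lie near the peptidyl transferase centre or line the exit tunnel. Some have counterparts in bacterial ribosomes and others are specific to mitochondria. Every protein made on mitoribosomes in mammals is a core subunit of a respiratory chain complex or of the ATP synthase. In white fat cells these complexes serve fatty acid oxidation, lipogenesis and the maturation of the adipocyte.

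The libraries differed in depth and in make-up. They held 4081597 to 15410736 reads in WT and 3736881 to 76838584 in the knockout, and knockout replicates 2, 3 and 4 were the deepest. No member gene rested on fewer than 27 reads in any library. The ribosomal RNA genes Rn18s and Rn28s1 took over 1% of the reads in WT replicates 1, 3 and 4 and knockout replicate 1, and under 1% in the other 4 libraries. Genes of the epididymis, the duct next to this fat depot, took 1.48% of the reads in 1 WT library (replicate 2), and 2.55% and 1.14% in knockout replicates 2 and 4. Haemoglobin and other red blood cell genes took 0.406% and 1.20% in knockout replicates 3 and 4, and 0.0276% to 0.0826% elsewhere. Markers of fat tissue were present in every library. Of 12 adipocyte marker genes 11 were higher in the knockout (range of the summed level 0.839% to 1.49% of reads in WT and 2.14% to 3.75% in the knockout), and of 12 macrophage marker genes 11 were lower (0.782% to 0.906% against 0.134% to 0.20%). In bulk tissue, fewer cells of a type and less RNA per cell cannot be told apart, and the part of this shift in cell types in the values below was not tested.

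The comparison of knockout with WT asks how the mitoribosome transcripts of this tissue differ with the deletion. Of the 77 genes, 17 were higher in the knockout and none was lower at an adjusted p under 0.05 (limma on the log2 values, two-sided, Benjamini-Hochberg over all 13797 genes). The clearest rises were those of Mrps34, Mrpl49, Mrps7, Mrpl53 and Mrps6, between 1.56-fold and 1.91-fold. The shifts were small, and no called member reached 2-fold. Over all 77 genes the median change was 0.33 on the log2 scale, or 1.26-fold, with quartiles of 0.16 and 0.51 and a range from -0.39 (Mrpl19) to 0.96 (Mrpl37).

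The 17 genes are 22.1% of the members, and 22.7% of all tested genes were called higher. No member was called lower, against 16.1% of all genes. At an unadjusted p under 0.05 in limma, 27 of the 77 members were higher and 1 lower, against 4144 and 2632 of all 13797 genes. In this fit the share of rises was near that of all genes, and no fall among the members passed the test. A change above 0 was seen in 71 members and one below 0 in 6, while 62.0% of all genes lay above 0. The median of all genes was itself 0.18, with quartiles of -0.23 and 0.66, so that the members' median lay 0.15 above it and 53 members exceeded it. All 4 knockout values lay above all 4 WT values for 12 members, against 20.8% of all genes, and all 4 lay below for Mrpl19, against 16.6% of all genes. Of the 12, 11 passed the test. The other one, Mrps35, a mitochondria-specific protein of the small subunit, changed by 0.69 ± 0.25 (SE, adjusted p = 0.0543 in limma).

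The count of 17 depended on single libraries and on the scaling. It was 7 without WT replicate 1, 8 without WT replicate 3, 6 without WT replicate 4, 5 without knockout replicate 3, 7 without knockout replicate 4 and 35 without knockout replicate 1. Without knockout replicate 3 that was 6.49% of the members against 15.99% of all genes, and without knockout replicate 1 it was 45.5% against 29.5%. It was 11 when each library was centred on its median gene, which moved the median of all genes to 0.03 and the split of all calls from 3137 higher and 2216 lower to 2444 and 2825. It was 5 without the 3 libraries with over 1% epididymis reads and 5 after adjustment for the ribosomal RNA class, and it was 36 with array weights. These are 6.49% of the members in the first 2 settings, where 15.3% and 16.3% of all genes were called higher, and 46.8% against 32.1% with array weights. Without WT replicates 1, 3 and 4 in turn the shares were 9.09%, 10.4% and 7.79% of the members, against 16.6%, 19.0% and 15.5% of all genes. Without knockout replicate 4 they were 9.09% and 17.7%. The members' share lay below that of all genes in most of the 22 alternatives. It lay above only with no level filter, the filter at a mean log2 CPM of 2, array weights, or without knockout replicate 1 or 2. The median change of the members stayed above 0 in all 22 alternatives, between 0.18 and 0.43. Mrps34, Mrpl49, Mrps7, Mrpl53 and Mrps6 were called higher in each of them.

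**Figure D1:**
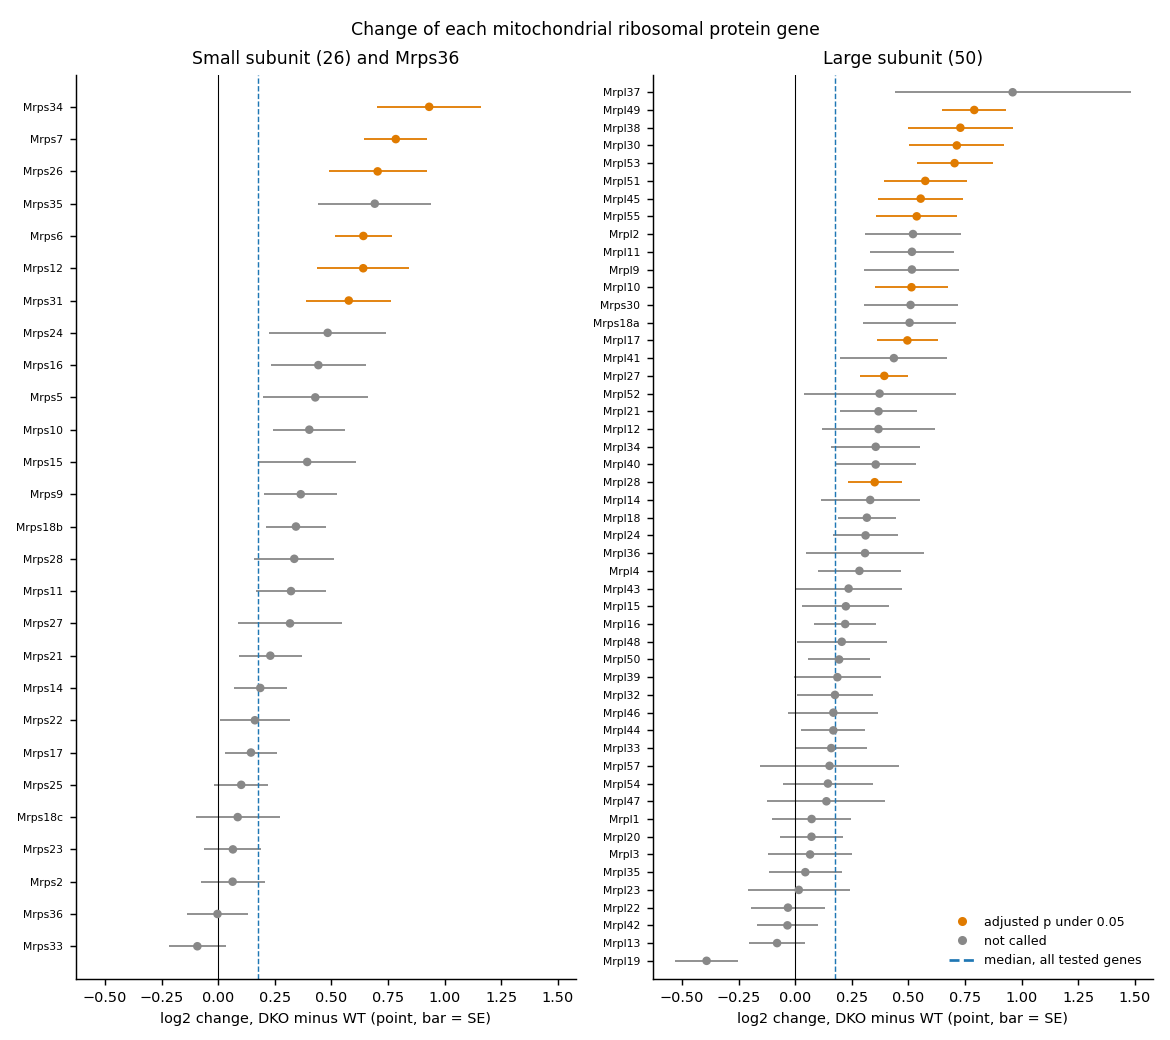
Change of each of the 77 genes as log2 knockout minus WT (points) with the SE from limma (bars), the 26 small-subunit genes and Mrps36 on the left and the 50 large-subunit genes on the right. Orange points passed an adjusted p of 0.05, and the dashed line marks the median of all tested genes at 0.18; the 17 called genes lie on the right of it and Mrpl19 lies lowest at -0.39.

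The rises were not spread evenly over the knockout libraries. Relative to the WT mean of each gene, 74 of 77 members were higher in knockout replicate 3 and 76 in knockout replicate 4, but 50 in knockout replicate 1 and 52 in knockout replicate 2. WT replicate 2 had 68 members above that mean and WT replicate 1 had 15. These counts are not scaled for shifts of whole libraries. The median of all tested genes ran from 4.41 log2 CPM in WT replicate 1 to 4.76 in knockout replicate 4. The members' median minus that of all genes was 0.017, 0.134, 0.027 and 0.217 in WT replicates 1 to 4. In knockout replicates 1 to 4 it was 0.132, -0.029, 0.413 and 0.483. The 77 genes together took 0.186%, 0.233%, 0.210% and 0.206% of the reads in WT replicates 1 to 4. In knockout replicates 1 to 4 they took 0.219%, 0.238%, 0.294% and 0.322%. The groups overlapped, since WT replicate 2 lay above knockout replicate 1, and knockout replicates 3 and 4 stood above the other 6 libraries. These 2 libraries also had the highest red blood cell shares and the highest adipocyte marker shares (3.75% and 3.07%), and the part of either in the members' levels was not tested.

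Within the libraries with more ribosomal RNA (3 WT and 1 knockout) the median difference of the members was 0.11, with 54 of 77 above 0, and that of all genes was 0.04. Within those with less (1 WT and 3 knockout) it was 0.22, with 68 above 0, and that of all genes was 0.08. The direction was thus the same in both classes, with smaller differences than in the pooled comparison. Neither class allows a test, since each holds 1 library of a group.

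**Figure D2:**
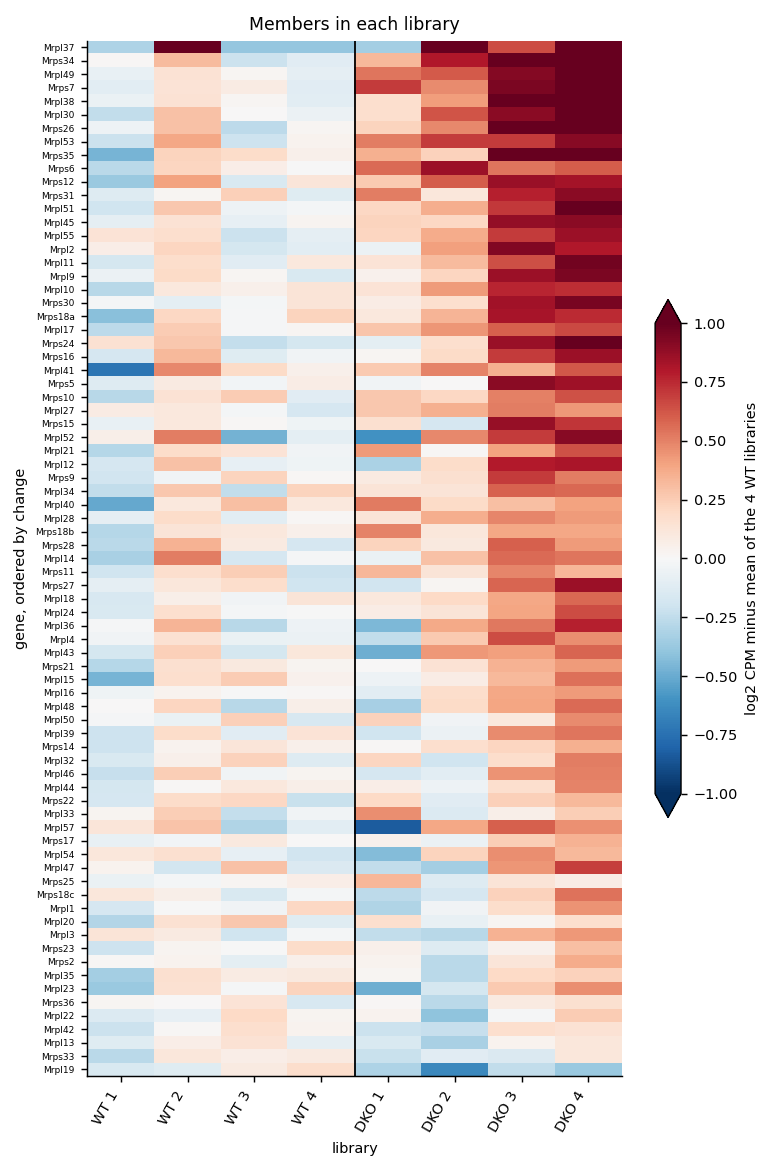
Log2 CPM of each of the 77 genes (rows, ordered by change) in each library (columns) minus the mean of the 4 WT libraries, on a colour scale cut at -1 and 1. Knockout replicates 3 and 4 are red for 74 and 76 genes, while knockout replicates 1 and 2 are mixed and WT replicate 2 is pale red for most genes.

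The small subunit had 26 members, of which 6 rose, with a median change of 0.35 and 25 changes above 0. The rises were 23.1% of its members, against 22.7% of all tested genes. Changes above 0 were 96.2%, against 62.0%. Mrps34, a mitochondria-specific protein of this subunit, stood at 4.30, 4.60, 4.08 and 4.18 log2 CPM in the 4 WT libraries and at 4.61, 5.09, 5.57 and 5.61 in the 4 knockout libraries. Every knockout value lay above every WT value, though knockout replicate 1 barely exceeded WT replicate 2. The change was 0.93 ± 0.23 (SE, adjusted p = 0.0119 in limma). It was 0.43 within the libraries with more ribosomal RNA and 0.82 within those with less.

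Mrps7, the counterpart of a bacterial protein that organises the head of the small subunit, stood at 4.999, 5.243, 5.188 and 4.997 log2 CPM in WT and at 5.802, 5.580, 6.052 and 6.129 in the knockout. The groups were well apart, with knockout replicate 2 the nearest to WT. The change was 0.78 ± 0.14 (SE, adjusted p = 0.00237 in limma), and it was 0.74 and 0.68 within the classes with more and with less ribosomal RNA. Mrps6, also with a bacterial counterpart, stood at 5.40, 5.88, 5.73 and 5.66 in WT and at 6.24, 6.52, 6.21 and 6.27 in the knockout. Here knockout replicate 2 was the highest library, and WT replicate 1 the lowest. The change was 0.64 ± 0.13 (SE, adjusted p = 0.0039 in limma), and within the classes it was 0.64 and 0.45. Mrps34, Mrps6 and Mrpl53 overlap another gene on the same strand, and Mrps7, Mrpl49 and Mrpl27 overlap one on the opposite strand, so that their reads may be shared with it.

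Mrps12, the counterpart of the bacterial protein at the decoding centre, stood at 3.45, 4.22, 3.67 and 3.95 log2 CPM in WT and at 4.09, 4.43, 4.68 and 4.65 in the knockout. WT replicate 2 lay above knockout replicate 1, so the groups overlapped, and the change was 0.64 ± 0.20 (SE, adjusted p = 0.0344 in limma). Mrps26 (0.70) and Mrps31 (0.58), both mitochondria-specific, also passed with overlapping groups. Of the relatives of the bacterial protein S18, Mrps18b changed by 0.34 and Mrps18c by 0.09, and neither passed the test. Mrps33 was the one gene of the subunit below 0, at -0.09 ± 0.12.

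The large subunit had 50 members, of which 11 rose, with a median change of 0.31 and 46 changes above 0. The rises were 22% of its members, against 22.7% of all tested genes. Changes above 0 were 92%, against 62.0%. Mrpl49, a mitochondria-specific protein, stood at 4.76, 4.98, 4.85 and 4.75 log2 CPM in WT and at 5.37, 5.45, 5.75 and 5.93 in the knockout. The groups were apart, with the lowest knockout value in replicate 1. The change was 0.79 ± 0.14 (SE, adjusted p = 0.00255 in limma), and it was 0.58 and 0.73 within the classes with more and with less ribosomal RNA. Mrpl53, also specific to mitochondria, stood at 3.63, 4.24, 3.64 and 3.88 in WT and at 4.36, 4.54, 4.54 and 4.76 in the knockout. WT replicate 2 came close to knockout replicate 1 without reaching it. The change was 0.70 ± 0.17 (SE, adjusted p = 0.0101 in limma).

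Mrpl17, with a bacterial counterpart, stood at 4.99, 5.51, 5.24 and 5.27 log2 CPM in WT and at 5.53, 5.70, 5.85 and 5.91 in the knockout. WT replicate 2 lay just under knockout replicate 1, and the change of 0.50 ± 0.14 (SE, adjusted p = 0.0189 in limma) passed in 19 of the 22 alternatives. Mrpl45, which lies near the exit of the tunnel and contacts the inner membrane, stood at 4.30, 4.54, 4.31 and 4.42 in WT and at 4.61, 4.60, 5.27 and 5.30 in the knockout. Knockout replicates 1 and 2 lay just over the highest WT value and replicates 3 and 4 well over it. The change was 0.55 ± 0.19 (SE, adjusted p = 0.044 in limma), and it passed in 8 of 22 alternatives.

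The other 7 called genes of the large subunit changed by 0.35 to 0.73. Mrpl38 (0.73) and Mrpl55 (0.54), both mitochondria-specific, and Mrpl10 (0.51), whose bacterial counterpart anchors the flexible stalk that recruits translation factors, had groups that did not overlap. Mrpl27 (0.39), the counterpart of a bacterial protein near the peptidyl transferase centre, did not overlap either. Mrpl30 (0.71), Mrpl51 (0.57) and Mrpl28 (0.35) passed with overlapping groups. Mrpl11 (0.52 ± 0.19, adjusted p = 0.0536 in limma) and Mrpl12 (0.37 ± 0.25), also proteins of the stalk region, did not pass. Nor did Mrps18a (0.51) and Mrps30 (0.51), which carry a small-subunit name but sit in the large subunit, or Mrpl44 (0.17), which has the fold of an RNA-cutting enzyme.

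By origin, 8 of 45 members with a bacterial counterpart (17.8%) and 9 of 31 mitochondria-specific members (29.0%) rose, with medians of 0.32 and 0.36. Of all tested genes 22.7% were called higher, with a median of 0.18. The difference between the classes by origin was not tested. Mrps36 was put in neither, since it is now known as a subunit of the oxoglutarate dehydrogenase complex. It stood at 4.44, 4.42, 4.55 and 4.26 log2 CPM in WT and at 4.43, 4.15, 4.51 and 4.58 in the knockout. The groups overlapped fully, and its change of -0.0030 on the log2 scale had a 95% interval from -0.30 to 0.30.

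**Figure D3:**
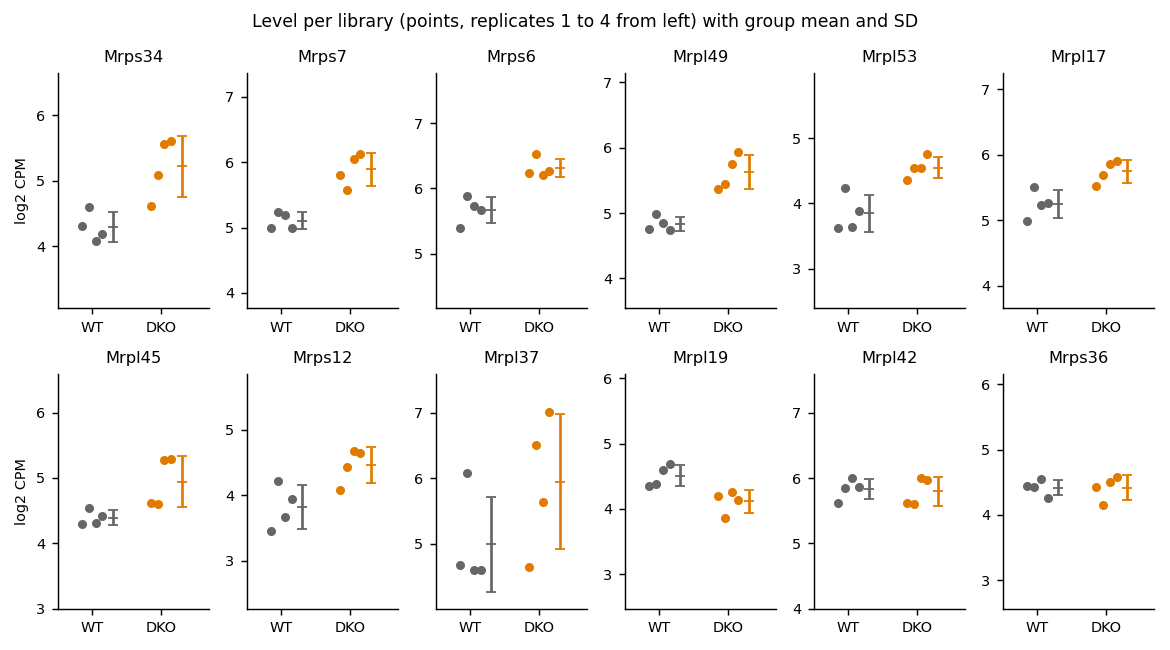
Log2 CPM in each library (points, replicates 1 to 4 from left to right) with the group mean and SD (bars) for 12 of the genes, grey for WT and orange for the knockout; all panels span the same range of log2 units. Mrps34, Mrps7, Mrps6, Mrpl49, Mrpl53, Mrpl17 and Mrpl45 have no overlap between groups, Mrpl37 has the widest spread, and Mrpl42 and Mrps36 overlap fully.

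Of the 6 members with a change below 0, none passed the test, and Mrpl19 came nearest to the threshold. Mrpl19, with a bacterial counterpart, stood at 4.35, 4.39, 4.60 and 4.68 log2 CPM in WT and at 4.20, 3.86, 4.26 and 4.14 in the knockout. All 4 knockout values lay below all 4 WT values, and the change of -0.39 ± 0.14 (SE, adjusted p = 0.0501 in limma) missed the threshold narrowly. It was -0.35 and -0.30 within the classes with more and with less ribosomal RNA. It passed in 8 of the 22 alternatives, among them median centring (-0.53, adjusted p = 0.0296 in limma), and its adjusted p ranged from 0.0205 to 0.272 over them. The gene that overlaps it on the opposite strand, Gcfc2, changed by -0.51 ± 0.19 (SE, adjusted p = 0.0607 in limma).

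The member with the largest change did not pass. Mrpl37, a mitochondria-specific protein of the large subunit, stood at 4.68, 6.08, 4.60 and 4.60 log2 CPM in WT and at 4.65, 6.50, 5.64 and 7.01 in the knockout. WT replicate 2 and knockout replicates 2 and 4 were the 3 highest libraries, and these are the 3 with over 1% of reads from epididymis genes. The change was 0.96 ± 0.52 (SE, adjusted p = 0.17 in limma). Without those 3 libraries it was 0.52 (adjusted p = 0.188 in limma), and without knockout replicate 1 it was 1.39 and passed (adjusted p = 0.0318 in limma). Within the classes with more and with less ribosomal RNA the differences were 0.02 and 0.31.

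The genes with the smallest changes included Mrpl23 (0.02) and Mrpl22 (-0.03), which line the exit of the peptide tunnel, Mrpl35 (0.05) and Mrpl42 (-0.03). Mrpl42, a mitochondria-specific protein, stood at 5.62, 5.84, 6.00 and 5.87 log2 CPM in WT and at 5.62, 5.60, 6.00 and 5.97 in the knockout, with a 95% interval of the change from -0.34 to 0.27. The directions of Mrpl23 and Mrpl35 turned below 0 when libraries were centred on their median gene.

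To compare genes with each other, levels were divided by the length of the longest annotated transcript (log2 RPKM). They ran from 1.45 for Mrpl47 to 6.62 for Mrpl20, with a median of 4.36 and quartiles of 3.51 and 4.92. After Mrpl20 (6.62 ± 0.19, SD over the 8 libraries) came Mrps21 (6.47 ± 0.22), Mrpl42 (6.40 ± 0.18) and Mrps6 (6.23 ± 0.38). Each of these 4 differed from the next by less than its SD. At the other end stood Mrpl19 (1.99 ± 0.26) and Mrps35 (2.23 ± 0.52) with Mrpl47. Their longest transcripts have 5000, 4162 and 3364 bases, against a median of 1316 over the members. Which transcript is expressed here was not tested, so these low ranks depend on that choice. Small-subunit and large-subunit genes had like medians of 4.31 and 4.40. The order of levels was close to the same in both groups, with a Spearman rho of 0.96 between WT and knockout means over the 77 genes, which share lengths and libraries. On the scale of log2 CPM, which does not correct for length, Mrpl20, Mrps6, Mrpl24, Mrpl51 and Mrpl42 were the highest, and Mrpl47, Mrpl34 and Mrpl57 the lowest. Of these 8, Mrps6 and Mrpl51 rose, and Mrpl20 (0.07), Mrpl24 (0.31), Mrpl34 (0.36), Mrpl47 (0.14) and Mrpl57 (0.15) did not pass the test.

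MicroRNAs pair with messengers through the seed near their 5′ end, and the 3′ UTRs of the 77 genes were searched for the site of the miR-181 seed. RefSeq (GRCm38.p6) lists miR-181a at chr1:137966468-137966490 and chr2:38852741-38852763 and miR-181b at chr1:137966650-137966673 and chr2:38853845-38853868, all on the plus strand. The mature sequences are shown because both carry the seed, bases 2 to 8 in capitals.
mmu-miR-181a-5p: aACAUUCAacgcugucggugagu
mmu-miR-181b-5p: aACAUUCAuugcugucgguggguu
The matching site TGAATGT occurred in the longest annotated 3′ UTR of 7 of the 77 members (9.09%), against 18.5% of 12851 tested genes with such a UTR. Members' UTRs were shorter, with a median of 387 bases against 1186. The 7 genes were Mrpl19, Mrps33, Mrpl16, Mrps5, Mrps16, Mrpl17 and Mrps30, and Mrps30 had 3 sites. Of these 7 genes 1 was called higher, Mrpl17, and so were 16 of the 70 members without a site. Over all genes 519 of 2376 with a site and 2420 of 10475 without one were called higher. Their median change was 0.43, against 0.33 for the 70 without a site, and over all genes it was 0.13 with and 0.19 without a site. The sites of Mrpl17, which rose, and of Mrpl19, the member with the most negative change, are shown with the site in capitals; they start at base 1147 of a UTR of 6651 bases and at base 1376 of one of 4090 bases.
Mrpl17: gaatgggtttTGAATGTggactcaaat
Mrpl19: gaactgggtgTGAATGTccagcaggaa
A match is a run of letters and not evidence of binding.

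The promoters of the members were also searched for motifs of regulators of mitochondrial genes. RefSeq windows from 250 bases before to 50 bases after the start site were found for 68 of the 77 genes. They were searched on both strands for CATGCGC (the core bound by NRF1, a regulator of nuclear genes for mitochondria), CCGGAAG (bound by ETS factors such as GABPA), AAGATGGC (YY1), TGACGTCA (cyclic AMP response element) and CACGTG (E-box); none of the 5 contains another. The ETS letters were in 25 of 68 members (36.8%) and 18.9% of 10396 tested genes. The YY1 letters were in 12 members (17.6%) and 4.98% of genes, and the NRF1 letters in 8 members (11.8%) and 7.60% of genes. The cyclic AMP element was in 2.94% of members and 3.47% of genes, and the E-box in 7.35% and 11.4%. With only the bases before the start site, the ETS letters were in 17 of 68 members and 14.9% of genes and the YY1 letters in 5.88% of members and 2.31% of genes. The median changes of members with and without the letters were 0.32 and 0.35 for ETS, 0.40 and 0.34 for YY1 and 0.26 and 0.34 for NRF1.

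The stretch from 160 bases before to 30 after the start site (RefSeq, GRCm38.p6) is shown for Mrps7, Mrpl49, Mrps6 and Mrpl53, which rose in every alternative, with matches to the 5 motifs in capitals.
Mrps7 (chr11:115603980-115604169, plus strand): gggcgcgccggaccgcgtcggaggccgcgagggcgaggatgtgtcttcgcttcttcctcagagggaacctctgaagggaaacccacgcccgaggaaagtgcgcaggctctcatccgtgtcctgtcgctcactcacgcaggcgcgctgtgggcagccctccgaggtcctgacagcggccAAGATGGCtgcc
Mrpl49 (chr19:6057726-6057915, minus strand): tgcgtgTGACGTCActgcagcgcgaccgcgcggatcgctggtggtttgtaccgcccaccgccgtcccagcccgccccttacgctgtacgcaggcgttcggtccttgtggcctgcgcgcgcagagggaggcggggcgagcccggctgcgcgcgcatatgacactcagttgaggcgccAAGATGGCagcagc
Mrps6 (chr16:92058176-92058365, plus strand): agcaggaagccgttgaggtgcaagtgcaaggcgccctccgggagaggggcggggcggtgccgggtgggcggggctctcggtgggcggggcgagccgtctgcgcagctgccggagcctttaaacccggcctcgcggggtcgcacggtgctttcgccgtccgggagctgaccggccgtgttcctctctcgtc
Mrpl53 (chr6:83108948-83109137, plus strand): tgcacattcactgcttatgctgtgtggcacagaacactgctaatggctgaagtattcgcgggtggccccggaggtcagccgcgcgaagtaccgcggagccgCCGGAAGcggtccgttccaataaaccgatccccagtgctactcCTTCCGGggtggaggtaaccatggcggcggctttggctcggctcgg
Mrps7 and Mrpl49 both carried the YY1 letters shortly after the start site, with the first base at positions 19 and 17, and Mrpl49 also held the cyclic AMP element 154 bases before it. Mrpl53 had the ETS letters on the strand shown and on the opposite one, 59 and 16 bases before the start. Mrps6 held none of the 5 in this window. No motif was common to all 4. Mrps34, which also rose in every alternative, had no promoter window. The YY1 letters include an ATG, so that a match near the start of a coding region can also be part of a start codon.

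Among the factors that bind these letters, Nrf1, Gabpa and Yy1 did not pass the test. Nrf1 changed by 0.10 ± 0.13, Gabpa by -0.12 ± 0.12 and Yy1 by -0.15 ± 0.13 (SE). Of 11 regulators of mitochondrial gene expression, 1 rose (9.09%) and 2 fell (18.2%), with a median of -0.12. Of all tested genes 22.7% were called higher and 16.1% lower. Ppargc1a, the coactivator of mitochondrial biogenesis, stood at 1.494, 1.497, 1.594 and 0.147 log2 CPM in WT and at 2.880, 2.289, 3.935 and 3.582 in the knockout. All knockout values exceeded the WT values, at a low level, and the change was 1.99 ± 0.45 (SE, adjusted p = 0.00776 in limma). Myc, a driver of ribosome synthesis that binds the E-box, fell by 0.95 ± 0.17 (SE, adjusted p = 0.00254 in limma), and Nfe2l2, the regulator of antioxidant genes, fell by 0.66 ± 0.10 (SE, adjusted p = 0.00117 in limma).

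Among the other genes of mitochondrial gene expression, some rose and none fell, with list medians of 0.39 to 0.48. Of all tested genes 22.7% were called higher and 16.1% lower, with a median of 0.18. Among 6 mitoribosome proteins with other names 1 was called higher (16.7%). It was Dap3, a protein of the small subunit, which rose from 5.09 ± 0.12 to 5.74 ± 0.24 log2 CPM (SD, n = 4). Its change was 0.65 ± 0.14 (SE, adjusted p = 0.00535 in limma), while Gadd45gip1 (0.58) did not pass. Of 26 genes of mitoribosome assembly, 8 rose (30.8%) and none fell, with a median of 0.40. They included Mpv17l2 (0.82) and the GTPases Mtg1 (0.71) and Noa1 (0.72). Of 16 translation factors, 4 rose (25%) and none fell, with a median of 0.39. Among them were the recycling factor Mrrf (0.56), the deformylase Pdf (0.72) and the elongation factor Tufm (0.58), while Lrpprc, which stabilises mitochondrial messengers, changed by 0.27 ± 0.21 and did not pass.

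Of 17 mitochondrial aminoacyl-tRNA synthetases 8 rose (47.1%, against 22.7% of all tested genes) and none fell, with a median of 0.48. Vars2 (0.88), Iars2 (0.76) and Nars2 (0.73), which charge valine, isoleucine and asparagine, had the smallest p. Lars2 stood apart at -2.22 ± 1.58 (SE). Its level ran from 7.42 to 14.2 log2 CPM and was highest in the 4 libraries with over 1% ribosomal RNA reads. Of 13 genes of mitochondrial DNA transcription and replication 5 rose (38.5%) and none fell, with a median of 0.42. Mgme1 (0.68), Peo1, the DNA helicase (0.98), Top1mt (0.73) and Tfam, which packages the DNA (0.50), passed, and the RNA polymerase Polrmt (0.38 ± 0.19) did not.

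The products of mitoribosomes and their partners can be set beside them. Of all tested genes 22.7% were called higher and 16.1% lower. Of 37 nuclear complex I subunits 20 rose (54.1%) and none fell, with a median of 0.58. Of 39 nuclear subunits of complexes II to V 19 rose (48.7%) and none fell, with a median of 0.58. Ndufv3 (0.83), Ndufb6 (0.98), Uqcr11 (1.01), Atp5k (0.87) and Cox8a (1.03) were among them. Of 7 tested protein genes of the mitochondrial genome none was called by limma, 2 of them being higher and none lower at an unadjusted p under 0.05, with a median of 0.21. The 3 genes CYTB (0.62), ND4 (0.65) and ND5 (0.62) had groups that did not overlap. The 2 mitochondrial ribosomal RNA genes, Rnr1 and Rnr2, were both below 0, with a median of -0.99, and neither was called. Within the libraries with more and with less ribosomal RNA their median differences were 0.32 and 0.17. The 76 cytosolic ribosomal proteins had 0 higher and 1 lower, Rpl31 (-0.52), with a median of -0.02, and 1 was higher and 2 lower at an unadjusted p under 0.05. Their summed share of reads was 2.41% to 3.52% in WT and 2.02% to 3.69% in the knockout. The differences between the medians of these lists were not tested.

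**Figure D4:**
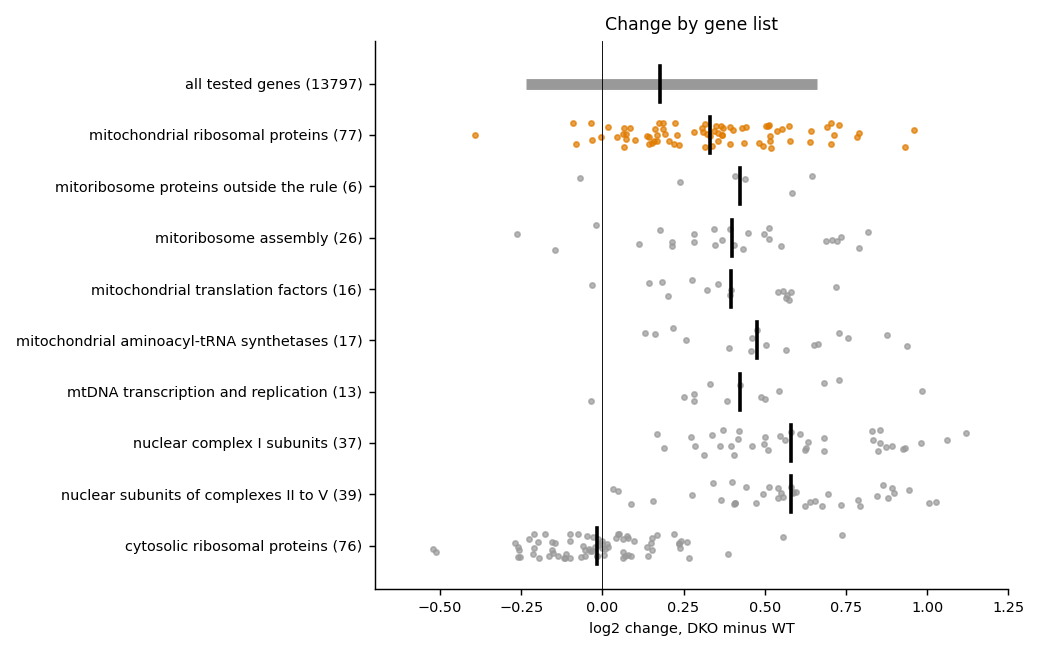
Log2 change, knockout minus WT, of each gene (points) in the members and 8 other lists, with the list medians (black bars); the grey bar spans the quartiles of all 13797 tested genes. The members' median of 0.33 lies between those of the cytosolic ribosomal proteins (-0.02) and the nuclear respiratory subunits (0.58), and Lars2 at -2.22 lies beyond the axis.

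**Figure D5:**
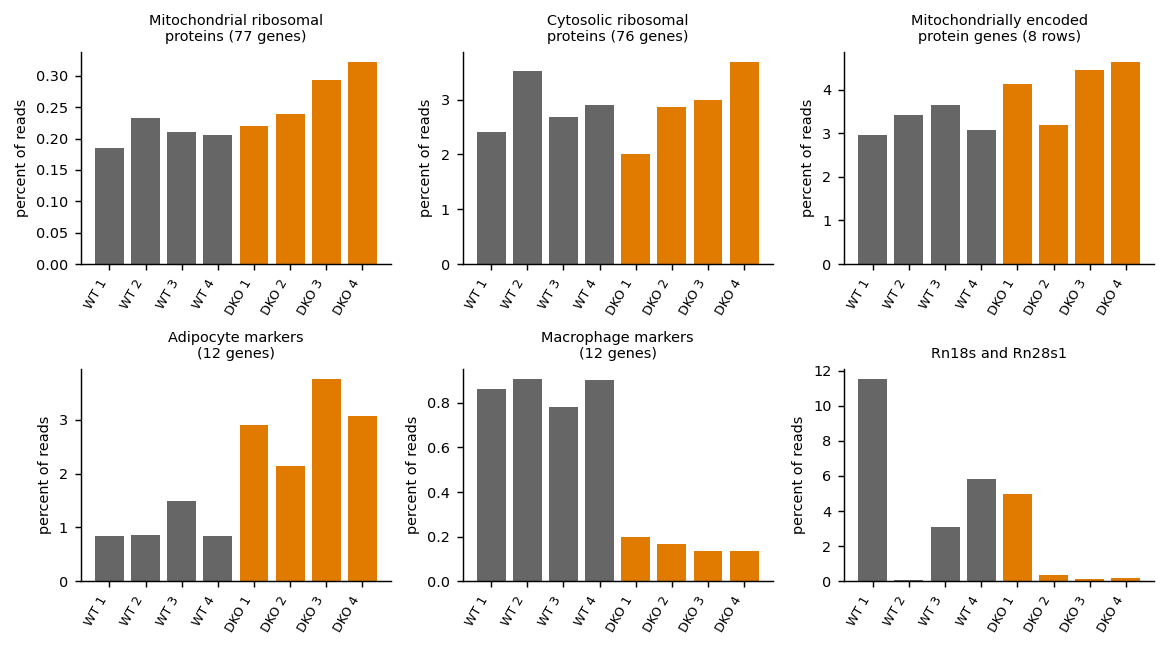
Share of all reads in each library taken by 6 groups of genes, in percent, grey for WT and orange for the knockout. The members take 0.294% and 0.322% in knockout replicates 3 and 4 and 0.186% to 0.238% in the other 6 libraries, whereas the adipocyte and macrophage marker shares separate all 4 knockout from all 4 WT libraries.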

How the data were processed

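Polyadenylated RNA of epididymal fat from 4 WT and 4 knockout mice was made into stranded libraries and read as 75-base single ends, per the labels' protocols. The submitters' processing notes name Trimmomatic, TopHat2, featureCounts, limma and the build mm9; the sources used here do not give versions or say whether counting used strand. One table of voom-normalized log2 CPM values was deposited. These equal the log2 of the count plus 0.5, scaled to the library total, and 100% of values gave whole reads within 0.01 read.

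Changes were fitted here with limma 3.58.1 in R 4.3.3 (lmFit, eBayes with a mean-variance trend, group only) for the 13797 genes whose mean log2 CPM was 0 or more. P-values were adjusted over all of them, and called means an adjusted p under 0.05. Given changes are on the log2(CPM) scale with these 0.5 reads added. No list was tested as a set. The fit was tested on simulated reads with known changes. Those reads held the same spread for every gene and no differences in make-up between libraries. The simulation therefore does not cover such differences in the data.

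The members and lists were chosen with earlier results of these data known. Members were named by the largest called rises without overlap, the highest and lowest levels, the smallest changes and by role; Mrpl19, Mrpl37, Mrps35, Mrps33, Mrps21, Mrpl30, Mrps26, Mrps31, Mrpl51, Mrpl27 and Mrpl28, and the respiratory and mitochondrially encoded genes beyond the 3 with the smallest p, were added after their values were seen. Lengths and UTRs came from GENCODE M21, promoters and miRNAs from RefSeq GRCm38.p6. Of the members, 26 overlap another coding gene, among them Mrps6, Mrps34 and Mrpl53 on the same strand, so their counts are uncertain. Plots were drawn with matplotlib 3.10.9.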

Additional observations from a re-analysis of the deposited data

Results flagged for a closer look

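Among the 77 members in each group of 4 libraries and the other values tested in the same way (158 groups in all), 6 had a single library whose distance from the other 3 was large for the range of its group. Chance flags about 1 in 20 groups, and these are 3.80%. Mrpl37 stood at 6.08 log2 CPM in WT replicate 2 and at 4.60 to 4.68 in the other WT libraries. Mrpl4, a large-subunit protein, stood at 5.26 in the same library and at 5.04 to 5.07 in the others. WT replicate 1 was low for Mrpl35, at 4.30 against 4.72 to 4.80, and for Mrps33, at 4.97 against 5.29 to 5.35. Knockout replicate 1, the shallowest library, was low for Mrpl43, at 4.04 against 4.94 to 5.11, and for Mrpl57, at 2.98 against 4.20 to 4.41. Mrpl57 rested on 29 reads there. None of these genes was called higher or lower.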

How the results depend on the processing

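The members' median change kept its direction in all 22 alternatives (0.18 to 0.43, and 0.23 to 0.43 when leaving out each library). The number of members called higher, 17, was 11 with median centring, 36 with array weights, 5 after adjustment for the ribosomal RNA class, 5 without libraries over 1% epididymis reads, and 5 to 35 when leaving out each library. The number called lower was 1 (Mrpl19) with the filter at 2, median centring, quantile normalization, voom with median-ratio size factors, without Rn18s, Rn28s1 and Lars2, with array weights and with thinned reads, and 0 to 1 when leaving out each library. Calls of all genes were 2478 higher and 2660 lower after quantile normalization and 2414 and 2964 with voom size factors, against 3137 and 2216, and the median of all genes moved to 0.05 and 0.04.

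Whether numbers shared between groups pair the samples was not settled. Correlations of the deviations of same-numbered libraries were 0.36, 0.79, 0.24 and -0.36. They cannot decide it, since differences in make-up between libraries also enter them. With a replicate block 18 members were higher and 0 lower. Not every library correlated best with its own number.

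Members with a change above 0 numbered 71, and 61 with median centring, 60 with quantile normalization and 61 with voom size factors. Median centring takes the same amount from every gene, so its turns of sign follow from its construction, and for the other settings the cause was not tested. Values are given for the genes named by the rule only, and other members turned sign too. With median centring Mrpl20 was at -0.072, Mrpl47 -0.0058, Mrpl23 -0.13, Mrpl35 -0.099 and Mrps18c -0.057. With quantile normalization Mrpl47 was at -0.081, Mrpl57 -0.019, Mrpl23 -0.099, Mrpl35 -0.095 and Mrps18c -0.046. With voom size factors Mrpl20 was at -0.084, Mrpl23 -0.071 and Mrpl35 -0.14. Without Rn18s, Rn28s1 and Lars2, Mrpl23 was at -0.051 and Mrpl35 at -0.022. With the ribosomal RNA class Mrpl57 was at -0.27, Mrps36 0.00016, Mrpl23 -0.20, Mrpl22 0.016, Mrpl35 -0.016 and Mrps18c -0.0496. Without libraries over 1% epididymis reads Mrpl57 was at -0.024, Mrps36 0.0503 and Mrpl23 -0.061. With array weights Mrpl42 was at 0.058 and Mrps36 at 0.0502. With thinned reads Mrpl42 was at 0.0086, Mrps36 0.049 and Mrpl44 -0.0035. When leaving out each library, the ranges were -0.027 to 0.16 for Mrpl20, -0.11 to 0.032 for Mrpl42, -0.046 to 0.30 for Mrpl47, -0.058 to 0.087 for Mrps36, -0.13 to 0.18 for Mrpl23, -0.13 to 0.091 for Mrpl22, -0.068 to 0.15 for Mrpl35 and -0.066 to 0.20 for Mrps18c. Depth limits the lowest genes in knockout replicate 1 and WT replicate 1, where single members rested on 27 and 36 reads.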

Other observations

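Among the members, 19 have a protein-coding neighbour that starts within 1000 bases on the other strand and runs away from them (GENCODE M21), and all 19 neighbours were tested. None of these neighbours was called higher and 4 were called lower: Ska3 beside Mrpl57, Pnpla7 beside Mrpl41, Klc4 beside Mrpl2 and Ncapd2, a condensin subunit, beside Mrpl51. Of all tested genes 22.7% were called higher and 16.1% lower. The median change of the neighbours was 0.16, near the 0.18 of all tested genes, against 0.43 for these 19 members. Mrpl51 was at 0.57 and Ncapd2 at -0.57 (adjusted p = 0.0114 in limma), and Mrpl41 was at 0.44 and Pnpla7 at -0.83 (adjusted p = 0.00101 in limma). Fau, which encodes a cytosolic ribosomal protein fused to a ubiquitin-like protein, stands beside Mrpl49 (0.79) and changed by 0.12 ± 0.26.

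Genes that overlap called members changed in both directions. Eme1, opposite Mrpl27, had the largest change, at -2.75 (adjusted p = 0.00079 in limma), at a low level of 1.42 log2 CPM in WT. Mapk8ip3, opposite Mrps34, was at 0.55 (adjusted p = 0.0138 in limma), and Syvn1, opposite Mrpl49, at 0.46 did not pass (adjusted p = 0.0605 in limma). Nme3, which lies on the strand of Mrps34, was at 0.80 ± 0.41 (SE, adjusted p = 0.151 in limma) and did not pass. Gga3, on the strand opposite Mrps7, was at -0.41 (adjusted p = 0.0206 in limma) and Mif4gd, also opposite it, at 0.87 (adjusted p = 0.0032 in limma). Slc5a3, the inositol transporter that lies on the strand of Mrps6, was at 0.54 ± 0.19 (adjusted p = 0.0469 in limma). Across the 77 genes the change had a Pearson correlation of 0.36 with the GC content of the transcript and of -0.02 with its log2 length. Over 12870 tested genes these were 0.14 and -0.04. The genes share libraries and are not independent replicates.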
